A study of Homo sapiens with 13 samples.

Results

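The genes described here are 52 genes of the interferon response and of innate nucleic acid sensing, chosen by symbol from the 56831 genes measured in each of 13 RNA libraries. All 52 symbols were found in both expression tables. They cover the path from the interferon receptors and their kinases, through the STAT and IRF transcription factors, to the sensors and antiviral proteins that those factors switch on. H82 and H146 are established small cell lung cancer (SCLC) lines, given as wild type in genotype and assigned in the study to the SCLC-N and SCLC-A subtypes. In each line, cells exposed to FHD-286 (100 nM, 14 days), an inhibitor of the SMARCA2 and SMARCA4 ATPases of the chromatin remodeller SWI/SNF, were compared with untreated cells. H82 had 3 untreated and 3 treated libraries, and H146 had 3 untreated and 4 treated libraries. The labels name no vehicle for the untreated cells and do not say that replicates came from separate cultures, so the tests measure the spread between these libraries, which may be technical.

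Interferons are secreted proteins that cells release when they sense foreign or misplaced nucleic acid. Type I interferons act through the receptor chains IFNAR1 and IFNAR2 and type II interferon acts through IFNGR1 and IFNGR2. The JAK kinases bound to these receptors phosphorylate STAT proteins, and STAT2 joins IRF9 in a complex that binds the interferon-stimulated response element (ISRE) in front of its target genes. The targets include antiviral enzymes, membrane proteins that block virus entry, and the sensors and factors of the pathway itself. Many SCLC lines of the neuroendocrine type are known for low expression of antigen presentation and interferon genes.

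All values are TPM (reads divided by gene length, with each library scaled to the same sum). The tables hold no read totals, so the depth behind each value is unknown and a value listed as 0 has no detection limit. Fold changes are differences of mean log2(TPM + 1), which understate the change of genes with low TPM, and a gene was tested where at least 3 libraries of its line had at least 1 TPM. A gene could pass this filter through the libraries of 1 group alone. A change was called at a Benjamini-Hochberg adjusted p under 0.05 in limma, over all genes tested in the line. The median of all genes moved with treatment, by -0.56 on the log2 scale in H82 and by 0.25 in H146. Each fold change was therefore also computed after scaling the libraries by their median of ratios, which left medians of -0.14 and -0.02. The number of genes at 1 TPM or more moved in the same directions, from 21227 to 21772 in untreated H82 to 15554 to 16633 in treated H82, and from 17476 to 17965 in untreated H146 to 18778 to 19309 in treated H146. Mitochondrial genes held 22.1% to 24.1% of the TPM in untreated and 12.3% to 14.9% in treated H82, and 7.56% to 8.86% and 3.82% to 11.4% in H146. The part of these shifts in the results was not tested. The neuroendocrine markers SYP, CHGA, NCAM1 and INSM1 were present in both lines (mean SYP 202 TPM in untreated H82 and 85.5 TPM in untreated H146). Mean INSM1 was 14.4 TPM in untreated H82 and 1230 TPM in untreated H146. NEUROD1 had a mean of 230 TPM in untreated H82 and at most 0.521 TPM in any H146 library. In treated H82, SYP (-2.13), CHGA (-2.36) and NEUROD1 (-1.53) fell and NCAM1 was not called. INSM1 rose there (2.19, adjusted p = 0.0498), with 296 TPM in replicate 2, and fell in H146 (-0.50). The 7 leukocyte markers summed to 1.59 to 4.86 TPM in H82 and 7.07 to 21.1 TPM in H146. In H146 the sum was 7.07 to 10.3 TPM untreated and 11.1, 9.86, 21.1 and 19.5 TPM in treated replicates 1 to 4. Of its 7 genes there, LYZ (lysozyme) rose from 0.219 to 0.489 TPM to 1.25 to 2.68 TPM (1.23 ± 0.22, adjusted p = 0.00247), CD14 went from 1.89 to 3.20 TPM to 3.03 to 10.9 TPM (1.11, adjusted p = 0.0557), PTPRC (CD45) had means of 5.25 and 5.38 TPM, and CD3E and MS4A1 were under 0.11 TPM. In H82, CD3E and CD163 were listed at 0 in all libraries. The summed fibroblast and endothelial markers were 0.566 to 0.946 TPM in untreated H82 and 6.24, 1.56 and 18.7 TPM in treated H82, against 3.98 to 7.83 TPM in H146. Single genes of the sum moved differently. In H82, PECAM1 went from 0.198 to 0.501 TPM to 0 to 0.0822 TPM, and VWF did not exceed 0.0935 TPM. In H146, VWF fell from 1.60 to 2.25 TPM to 0.0307 to 0.137 TPM (-1.44 ± 0.17, adjusted p = 0.000353). There COL1A1 and PECAM1 overlapped, and DCN went from 0.0224 to 0.0408 TPM to 0.0497 to 0.359 TPM. The part of these markers in the results was not tested.

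Within the treated groups, some libraries stood apart. For H82, 57 genes were picked that were high in every H146 library and near 0 in untreated H82. Treated replicate 2 held them at a median of 2.16% of their H146 level, against 0.469% and 0.177% in treated replicates 1 and 3. The untreated H82 libraries were at 0%, which follows from how the genes were picked and is no comparison. USP18 and LGALS3BP were highest among the H82 libraries in treated replicate 2, at 9.71 and 17.5 TPM. The part of this in the results was not tested, and results are given without this library where its removal changed them. Over all genes, treated replicate 1 of H82 differed from replicates 2 and 3 by an SD of 0.83 and 0.76 on the log2 scale, while replicates 2 and 3 differed by 0.53. Among the treated H146 libraries, replicates 3 and 4 differed by 0.36, as little as the untreated ones did (0.32 to 0.37), and replicate 2 differed from them by 0.76 and 0.80. UBE2L6, ISG15, ISG20 and IFI6 were highest and IFI16 was lowest in treated replicate 1 of H82. Without that library their changes in H82 were 0.57 (adjusted p = 0.00942), -0.70 (adjusted p = 0.077), -0.33 (adjusted p = 0.198), 0.46 (adjusted p = 0.0782) and -0.16 (adjusted p = 0.485). In H146, GBP1 and SAMHD1 divided treated replicates 1 and 2 from 3 and 4, with the untreated libraries in between. Replicates 1 and 2 also lay wholly above or wholly below 3 and 4 for IFNAR1, IFNGR2, IRF7, DDX58, EIF2AK2, IFIT5 and OAS1. The same held for BST2, GBP2, ISG15, USP18 and IFI6. The share of all genes divided in this way was not counted. Without treated replicate 2 the changes of GBP1 and SAMHD1 were -0.64 (adjusted p = 0.378) and 0.22 (adjusted p = 0.436). That fit still holds replicate 1 beside 3 and 4.

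The untreated lines differed in how much of the pathway they expressed. In untreated H82, 23 of the 52 genes had a mean of at least 1 TPM, against 37 in untreated H146. Every untreated H146 library was above every untreated H82 library for 33 genes, the reverse held for 11 genes, and 8 overlapped. Among the 24374 genes with at least 1 TPM in 3 or more of the 13 libraries, the shares were 33.9% and 45.5%. The 52 genes were counted without that filter, so the bases are unlike. Since each line was deposited as its own table, line and table cannot be told apart. Summed over the 52 genes, H82 held 288 to 301 TPM without and 267 to 317 TPM with the inhibitor. H146 held 455 to 503 TPM without and 430 to 517 TPM with it, so the totals overlapped in both lines. IFNGR1 and IFNAR1 held 18.9% and 18.2% of the sum in untreated H82. Without receptors, kinases, transcription factors and sensing genes, the H82 sum was 60.5 to 62.3 TPM untreated and 153, 81.99 and 111 TPM treated. Those groups did not overlap. In H146 that smaller sum overlapped, at 173 to 190 TPM untreated and 145 to 216 TPM treated. By mean, its highest genes in treated H82 were UBE2L6, IFI35, IFI6 and IFITM3. The smaller sum was not tested. In H82, 8 genes were listed at 0 in all untreated libraries, namely the helicase gene DDX60, IFIT2, OAS1, OAS3, OASL, IFITM1, MX1 and TRIM22, whereas none was in H146. Of the 52 genes, 10 stayed under 1 TPM in all 13 libraries.

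**Figure D1:**
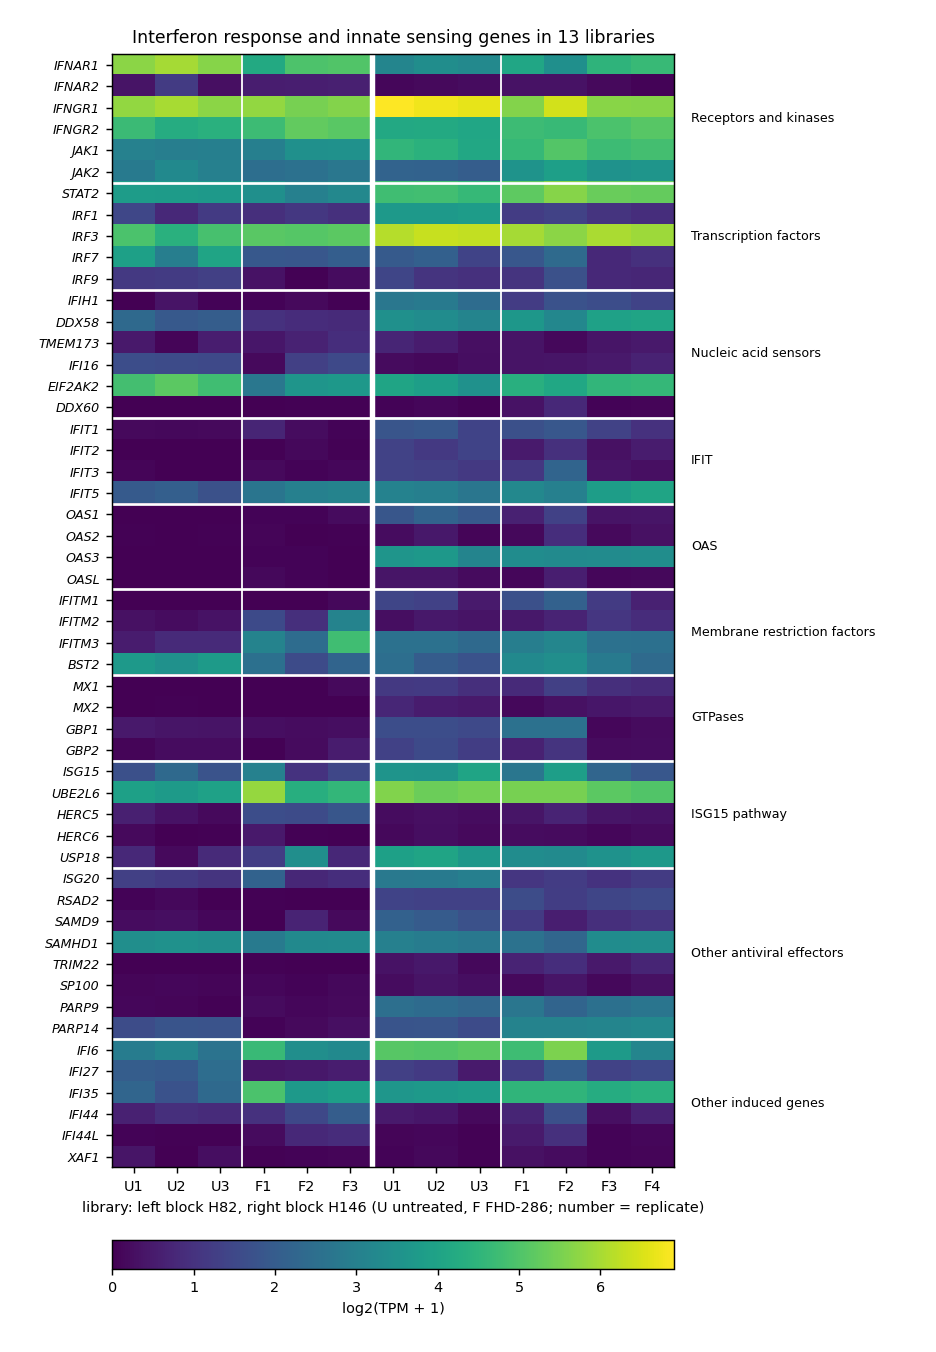
Level of each of the 52 genes (rows, grouped by role) in each of the 13 libraries (columns), as log2(TPM + 1) on a colour scale from 0 (dark) to the highest value (yellow). The OAS, IFIT and GTPase rows are dark throughout H82 except for IFIT5, while in H146 OAS3, USP18 and ISG15 are well above 1 TPM in every library.

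With FHD-286, the genes of this pathway did not move as 1 block in either line. In H82, 25 of the 52 genes passed the filter on low values. Of these, 5 rose (IFNGR2, IFIT5, IFITM3, HERC5 and IFI35), which is 20% against 13.1% of all genes tested, and 9 fell (IFNAR1, STAT2, IRF7, IRF9, DDX58, EIF2AK2, BST2, PARP14 and IFI27), which is 36.0% against 45.5% of all genes. The other 11 did not pass the threshold. HERC5 and IFITM3 passed the filter only through treated libraries, and IRF9, DDX58, PARP14 and IFI27 only through untreated ones. The calls of these genes held with no filter on low values. The shares of all genes rest on the same filter. In bulk RNA, fewer cells of a type and less RNA per cell cannot be told apart. The median change of the 25 genes was -0.19 on the log2 scale, beside -0.56 over all genes. After median-of-ratios scaling, 9 rose and 7 fell, beside 24.2% and 32.9% of all genes, and the median was 0.15 beside -0.14. With quantile normalization, 11 rose and 5 fell, beside 25.6% and 28.1% of all genes. Without treated replicate 2, the counts were 5 and 8, and the share of all genes is not given for that fit. The treated and untreated libraries did not overlap for 8 of the 25 genes with treated above (16.4% of all genes) and for 12 with treated below (51.4%).

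In H146, 37 genes passed the filter. Of these, 9 rose (IFNAR1, IFNGR2, JAK1, JAK2, STAT2, EIF2AK2, BST2, PARP14 and IFI35), which is 24.3% against 32.5% of all genes tested, and 9 fell (IFNGR1, IRF1, IRF3, IFIH1, IFIT2, OAS1, GBP2, ISG20 and SAMD9), which is 24.3% against 15.5%. The other 19 did not pass the threshold. IFIT2, OAS1, GBP2 and SAMD9 reached 1 TPM in 3 libraries only with the untreated ones counted. Their calls held with no filter on low values. The median change of the 37 genes was -0.11 beside 0.25 over all genes. After median-of-ratios scaling, 3 rose (IFNGR2, JAK2 and PARP14) and 13 fell, beside 21.3% and 25.1% of all genes, and the median was -0.27 beside -0.02. With quantile normalization, 5 rose and 11 fell, beside 23.7% and 21.0%. The 13 that fell were the 9 above with OAS3, ISG15, UBE2L6 and USP18. The number that rose was 5 in place of 9 without untreated replicate 2, without untreated replicate 3 or without treated replicate 3. The share of all genes is not given for these fits. With no filter on low values, the calls of IFNAR1, JAK1, BST2 and IRF3 were lost (adjusted p = 0.0567 to 0.0723). Treated libraries lay wholly above the untreated ones for 8 of the 37 genes (35.7% of all genes) and wholly below for 9 (17.3%).

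**Figure D2:**
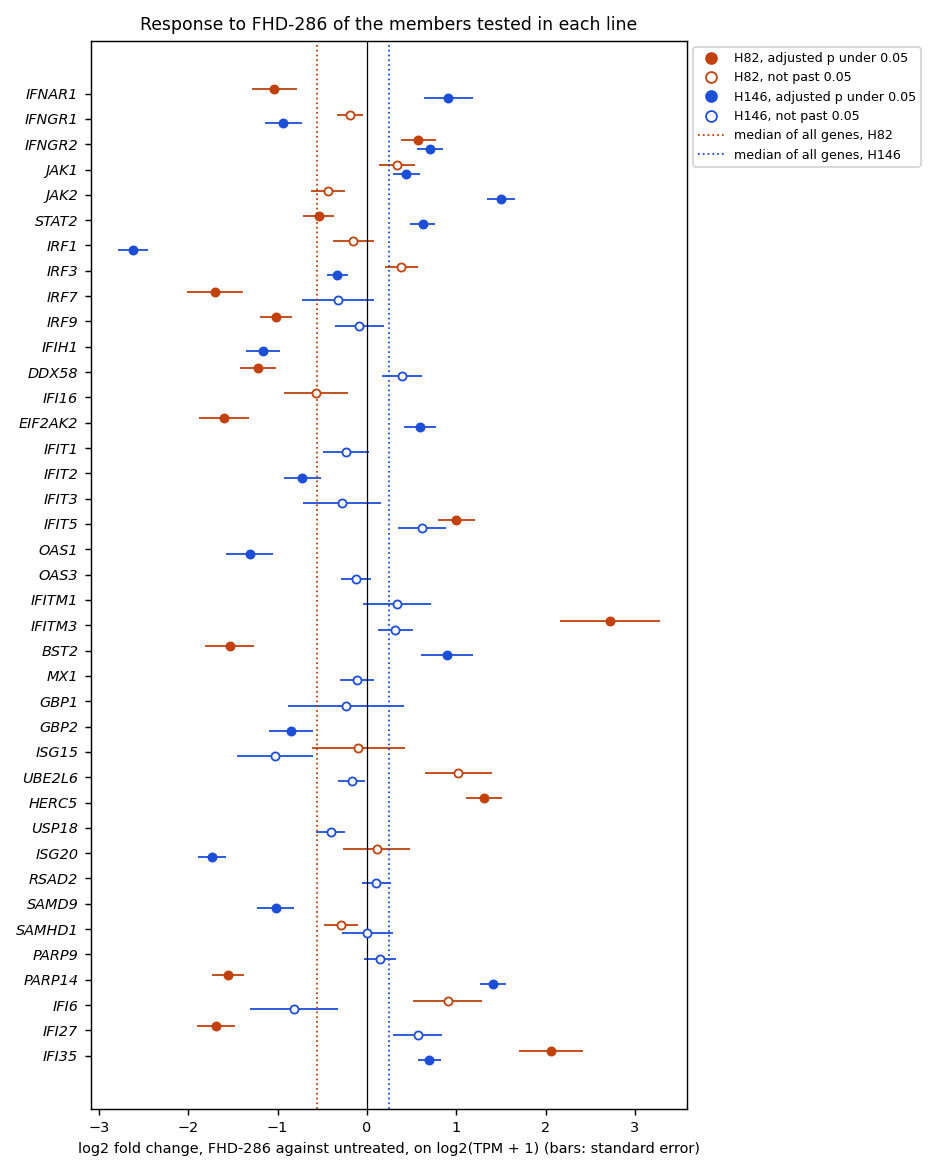
Change with FHD-286 in each line for the genes tested in at least 1 line, as the log2 fold change on log2(TPM + 1) with its standard error (orange, H82, 3 against 3 libraries; blue, H146, 4 against 3 libraries). Filled points passed an adjusted p of 0.05, dotted lines mark the median of all genes in each line at -0.56 and 0.25, and PARP14, EIF2AK2, BST2, IFNAR1 and STAT2 have filled points on opposite sides of 0.

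Among the receptors, the type I chain IFNAR1 and both type II chains were well expressed, and IFNAR2 was low. IFNAR1, the chain of the type I receptor that binds the kinase TYK2, had 50.7, 61.7 and 49.1 TPM in untreated H82 and 17.1, 30.5 and 31.9 TPM in treated H82. All treated libraries were below all untreated ones, and the log2 fold change was -1.04 ± 0.25 (SE, adjusted p = 0.0108, n = 3 and 3 in limma), but the call was lost after median-of-ratios scaling, at -0.56 (adjusted p = 0.072). In H146 the same gene went from 7.86, 9.39 and 8.48 TPM to 15.9, 9.87, 21.6 and 24 TPM, without overlap. That rise of 0.91 ± 0.28 (adjusted p = 0.025) was lost with the median of ratios (0.62, adjusted p = 0.0763). It was also lost when any of the 3 untreated libraries or treated replicates 3 or 4 was left out, at 0.75 to 0.97 with an adjusted p of up to 0.0834. IFNAR2, the other type I chain, passed the filter in neither line, with 0.222 to 1.29 TPM in H82 and 0.0434 to 0.262 TPM in H146. In GENCODE release 44, 14.7% of its exonic bases also belong to the readthrough gene IFNAR2-IL10RB on the same strand.

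IFNGR1, the ligand-binding chain of the type II receptor, had the highest mean of the 52 genes in untreated cells of both lines. H82 had 53.8, 62.4 and 51.5 TPM untreated and 54.4, 44.3 and 47.8 TPM treated, which overlapped (log2 fold change -0.19, adjusted p = 0.297). H146 had 119, 108 and 99.6 TPM untreated and 47.8, 84.7, 49.8 and 49.3 TPM treated. Every treated H146 library was lower, with a change of -0.93 ± 0.21 (adjusted p = 0.00659), and treated replicate 2 was far above its 3 neighbours. IFNGR2, the signalling chain of the same receptor, moved the other way. It rose in H146 from 17, 17.4 and 15.9 TPM to 25.6, 24.1, 29.9 and 33.5 TPM (0.71 ± 0.14, adjusted p = 0.00462), and also with the median of ratios (0.40, adjusted p = 0.0254). In H82 it went from 25.1, 18.5 and 19.7 TPM to 25.3, 36.7 and 34.0 TPM, with the lowest treated library just above the highest untreated one. The H82 change of 0.57 ± 0.20 (adjusted p = 0.0405) was lost when untreated replicate 2 or 3 or treated replicate 2 or 3 was left out, at 0.47 to 0.53 with an adjusted p of 0.109 to 0.126. It was also lost with no filter on low values (adjusted p = 0.0626), without mitochondrial genes (adjusted p = 0.0888) and without the trend in limma (adjusted p = 0.0529).

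Of the kinases, JAK2 serves the type II receptor and JAK1 serves both types. With the TPM as deposited, only for JAK2 did the change differ between the lines (JAK1 difference 0.11, adjusted p = 0.712). With other scalings the JAK1 difference was past the threshold with the sign turned. It was -0.64 (adjusted p = 0.0255) with the median of ratios and -0.87 (adjusted p = 0.00572) with quantile normalization. JAK2 had 3.61, 3.53 and 3.10 TPM in untreated H146 and 10.8, 13.8, 10.5 and 11.1 TPM in treated H146. Its rise of 1.5 ± 0.15 (adjusted p = 0.000189) held with the median of ratios (1.23, adjusted p = 0.000522), with the groups far apart. In H82, JAK2 had 6.15, 8.62 and 7 TPM untreated and 4.65, 4.93 and 5.66 TPM treated, without overlap but not past the threshold (-0.43, adjusted p = 0.0932, and -0.58, adjusted p = 0.044, without mitochondrial genes). JAK1 had 22.2, 20.3 and 16.6 TPM in untreated H146 and 23.5, 32.0, 25.5 and 27.5 TPM in treated H146, again without overlap. Its rise of 0.44 ± 0.15 (adjusted p = 0.0426) was 0.14 (adjusted p = 0.474) with the median of ratios. It was lost when any library other than treated replicate 1 was left out, at 0.33 to 0.53 with an adjusted p of up to 0.143. In H82, JAK1 had 7.13, 6.69 and 6.90 TPM untreated and 6.92, 10.0 and 10.3 TPM treated (0.33, adjusted p = 0.189). That was past the threshold with the median of ratios (0.77, adjusted p = 0.0109), and also without treated replicate 1 (0.50, adjusted p = 0.016).

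Among the transcription factors, IRF1 showed the largest fall of the 52 genes in H146. IRF1 is the factor that type II interferon induces and that drives antigen presentation genes (chr5:132440440-132508719, hg38). It had 12.3, 12 and 13.2 TPM in untreated H146 and 1.35, 1.57, 1.06 and 0.886 TPM in treated H146. The groups were far apart, and the log2 fold change was -2.62 ± 0.17 (adjusted p = 2.09e-05), or -2.86 with the median of ratios. In H82, IRF1 was low throughout, at 1.79, 0.732 and 1.26 TPM untreated and 0.889, 1.17 and 0.949 TPM treated. That overlapped (-0.15, adjusted p = 0.602), and the sign turned with scaling, to 0.10 (adjusted p = 0.711) with the median of ratios and to 0.74 (adjusted p = 0.0287) with quantile normalization.

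IRF7, which amplifies type I interferon production, fell in H82 from 14.2, 6.71 and 15.4 TPM to 2.73, 2.64 and 3.15 TPM. The treated libraries were all lower and close to each other, with a change of -1.70 ± 0.31 (adjusted p = 0.00327) that was -1.29 (adjusted p = 0.0117) with the median of ratios and -0.89 (adjusted p = 0.078) with quantile normalization. In H146, IRF7 had 2.90, 3.36 and 1.63 TPM untreated and 2.68, 4.21, 0.735 and 0.952 TPM treated, which overlapped (-0.32, adjusted p = 0.532). IRF9, the DNA-binding partner of STAT2, fell in H82 from 1.21, 1.30 and 1.46 TPM to 0.252, 0.0366 and 0.168 TPM. The IRF9 change of -1.01 ± 0.18 (adjusted p = 0.00268) was -0.84 (adjusted p = 0.00642) with the median of ratios and missed the threshold with quantile normalization (-0.32, adjusted p = 0.174). In H146 it had 1.73, 1.06 and 0.943 TPM untreated and 1.04, 2.27, 0.735 and 0.660 TPM treated (-0.08, adjusted p = 0.817). In release 44, 23.9% of the exonic bases of IRF9 lie in another gene on the same strand.

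STAT2 had 13, 12.7 and 12.2 TPM in untreated H82 and 9.94, 7.11 and 8.29 TPM in treated H82, without overlap. The change of -0.54 ± 0.18 (adjusted p = 0.0327) was close to the shift of all genes in that line (-0.56), and it was -0.09 (adjusted p = 0.7) with the median of ratios and 0.095 (adjusted p = 0.657) with quantile normalization. It was also lost when any library other than treated replicate 1 was left out, at -0.56 to -0.43 with an adjusted p of up to 0.113. In H146, STAT2 went from 26.4, 27.0 and 23.6 TPM to 35.6, 49.2, 39.2 and 37.5 TPM. This rise of 0.62 ± 0.14 (adjusted p = 0.00738) was not past the threshold with the median of ratios (0.31, adjusted p = 0.106) and was with quantile normalization (0.46, adjusted p = 0.0315). IRF3, which turns on the interferon genes once a sensor is active, had 69.2, 78.6 and 75.7 TPM in untreated H146 and 62.3, 51.2, 64.4 and 58.6 TPM in treated H146. Its change of -0.33 ± 0.12 (adjusted p = 0.0481) missed the threshold whenever any 1 of the 7 libraries was left out, at -0.38 to -0.27 with an adjusted p of up to 0.152, but was clearer with the median of ratios (-0.65, adjusted p = 0.00236). In H82, IRF3 had 29.8, 19.9 and 28.7 TPM untreated and 34.0, 33.2 and 34.7 TPM treated, without overlap. There it was 0.39 (adjusted p = 0.109), and 0.86 (adjusted p = 0.00651) with the median of ratios.

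The letters that the STAT2 and IRF9 complex reads were searched for in the promoters of the 52 genes, as background to the effector genes below. RefSeq promoters (GRCh38.p14, 250 bases before to 50 after a start) were given for 40 of them. The ISRE core (GAAA, then 2 free bases, then GAAA), on either strand, was found in 23 of the 40 (57.5%), against 1195 of 27305 genes with a promoter (4.38%). The core of the gamma-activated sequence TTCNNNGAA, the element linked to type II interferon, was found in 10 of the 40 (25%) against 9.38%. Matches of the 2 cores were counted separately and may overlap. The list was put together from genes known to respond to interferon, so this share describes the list. A match is a stretch of letters and not a shown binding site. The windows below are 30 bases long, run 5′ to 3′ on the gene's own strand (GRCh38.p14), and have the ISRE core in capitals, or its reverse complement where it lies on the other strand. They are shown for genes that changed in H82, in H146 or in both, to set the same letters beside different responses.
PARP14 (chr3:122680800-122680829, plus strand): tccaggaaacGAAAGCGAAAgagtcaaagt
EIF2AK2 (chr2:37156967-37156996, minus strand): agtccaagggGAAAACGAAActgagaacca
BST2 (chr19:17405735-17405764, minus strand): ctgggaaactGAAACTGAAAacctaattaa
IFI27 (chr14:94110618-94110647, plus strand): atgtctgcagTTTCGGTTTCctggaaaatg
IFITM3 (chr11:320876-320905, minus strand): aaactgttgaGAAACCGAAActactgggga
HERC5 (chr4:88457035-88457064, plus strand): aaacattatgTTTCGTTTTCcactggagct
IFIT5 (chr10:89414513-89414542, plus strand): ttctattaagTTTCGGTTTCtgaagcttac
IFIH1 (chr2:162318686-162318715, minus strand): gaagagaatcGAAACAGAAAccaaagtcag
ISG20 (chr15:88638937-88638966, plus strand): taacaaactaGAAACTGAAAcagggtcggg
SAMD9 (chr7:93118096-93118125, minus strand): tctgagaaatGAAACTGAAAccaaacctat
The first 4 genes fell in H82, the next 3 rose in H82 and the last 3 fell in H146. No ISRE core was in the promoter windows of IFI35 and IRF1, both of which hold the gamma-activated core, nor in those of IFNAR1, JAK2, STAT2 or DDX58.

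Of the sensors, EIF2AK2 and DDX58 fell in H82 and IFIH1 fell in H146. EIF2AK2 encodes PKR, the kinase that stops translation when it binds RNA duplexes. It had 27.8, 35 and 26.7 TPM in untreated H82 and 5.62, 11.0 and 11.9 TPM in treated H82. All treated libraries were well below the untreated ones (-1.60 ± 0.28, adjusted p = 0.00267, and -1.14, adjusted p = 0.00875, with the median of ratios). In H146 it had 15.2, 13.7 and 10.3 TPM untreated and 19.3, 16.3, 22.2 and 23.2 TPM treated, with all treated libraries higher. That rise of 0.60 ± 0.18 (adjusted p = 0.0246) was 0.30 (adjusted p = 0.13) with the median of ratios. It was lost without untreated replicate 2 or 3 or treated replicate 3 or 4, at 0.45 to 0.64 with an adjusted p of up to 0.0911.

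DDX58 encodes RIG-I, a cytosolic sensor of viral RNA ends, and had 4.10, 2.80 and 3.10 TPM in untreated H82 against 0.762 to 0.961 TPM in the 3 treated H82 libraries, all of them lower. This fall of -1.22 ± 0.20 (adjusted p = 0.0021) was -0.91 (adjusted p = 0.00815) with the median of ratios and -0.21 (adjusted p = 0.423) with quantile normalization. In H146, DDX58 had 10.0, 9.19 and 7.66 TPM untreated and 11.6, 8.10, 14.5 and 15.3 TPM treated, where replicate 2 overlapped the untreated range (0.40, adjusted p = 0.169). Without treated replicate 2 the H146 change was 0.57 (adjusted p = 0.0163). In release 44, 43.2% of the exonic bases of DDX58 also belong to an unnamed gene on the same strand. IFIH1 encodes MDA5, a sensor of long RNA duplexes, and was near 0 in H82, at 0 to 0.286 TPM over all 6 libraries. In H146 it fell from 5.65, 6 and 4.43 TPM to 1.36, 2.33, 2.08 and 1.64 TPM, without overlap (-1.16 ± 0.19, adjusted p = 0.00173).

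DNA sensing genes were low in both lines. TMEM173, which encodes the adaptor STING, had 0.398, 0.0674 and 0.479 TPM in untreated H82 and 0.341, 0.577 and 0.861 TPM in treated H82. In H146, TMEM173 had 0.652, 0.449 and 0.227 TPM untreated and 0.285, 0.111, 0.306 and 0.390 TPM treated, so the groups overlapped in both lines. IFI16, a sensor of DNA, had 2.10, 1.96 and 1.89 TPM in untreated H82 and 0.135, 1.49 and 1.86 TPM in treated H82. Replicate 1 was low and the other 2 treated libraries were just under the untreated range (-0.57, adjusted p = 0.209). In H146, IFI16 was below the filter, at 0.146, 0.109 and 0.198 TPM untreated and 0.291, 0.302, 0.385 and 0.567 TPM treated. All 4 treated libraries were above the 3 untreated ones (exact permutation test, two-sided p = 0.0286, the smallest that 4 against 3 allows). DDX60, a helicase that assists RIG-I, did not exceed 0.726 TPM in any library.

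The IFIT proteins bind viral RNA and block its translation. IFIT5 was the only one of the 4 tested in H82, where it rose from 2.87, 3.29 and 2.29 TPM to 5.48, 7.05 and 7.43 TPM, without overlap. The change was 1 ± 0.21 (adjusted p = 0.00551), and 1.40 (adjusted p = 0.00138) with the median of ratios. In H146, IFIT5 had 7.36, 6.83 and 5.5 TPM untreated and 8.29, 7.11, 13.3 and 15.4 TPM treated, with replicate 2 in the untreated range (0.62, adjusted p = 0.084, and 0.79, adjusted p = 0.0175, without treated replicate 2). IFIT1, IFIT2 and IFIT3 had at most 0.647 TPM in any H82 library. IFIT2 fell in H146 from 1.55, 1.19 and 1.62 TPM to 0.402, 0.935, 0.235 and 0.439 TPM, with no overlap. The IFIT2 change of -0.72 ± 0.21 (adjusted p = 0.0194) was lost without untreated replicate 1 or 3 or treated replicate 3, at -0.69 to -0.64 with an adjusted p of 0.0509 to 0.0677, and held with the median of ratios. IFIT1 and IFIT3 in H146 had differences of -0.23 (adjusted p = 0.477) and -0.27 (adjusted p = 0.626). Without treated replicate 2, where IFIT3 was at 3.63 TPM, the IFIT3 difference was -0.68 (adjusted p = 0.0486). The IFIT genes form a family, and how reads matching more than 1 gene were counted is not given in the sources used here.

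The OAS enzymes make oligoadenylates that activate the RNA-degrading enzyme RNase L. In H146, OAS1 fell from 2.59, 3.55 and 2.82 TPM to 0.555, 1.51, 0.282 and 0.304 TPM. All treated libraries were lower, with a change of -1.31 ± 0.26 (adjusted p = 0.00443) and of -1.49 with the median of ratios. OAS3, the highest of the 4 in H146, had 11.2, 11.8 and 7.66 TPM untreated and 8.94 to 9.54 TPM treated (-0.12, adjusted p = 0.581), which passed the threshold after median-of-ratios scaling (-0.41, adjusted p = 0.049). OAS2 and OASL stayed under 1 TPM in every library. In H82, none of the 4 reached 0.16 TPM, and OAS1 and OAS3 were listed at 0 in all untreated and above 0 in all treated libraries, at 0.0483 to 0.155 TPM and 0.0155 to 0.0505 TPM (exact permutation test, two-sided p = 0.1, the smallest that 3 against 3 allows).

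Membrane proteins that restrict viruses gave the largest rise in H82. IFITM3, which blocks the fusion of virus and endosome membranes (chr11:319676-329475, hg38), had 0.427, 0.770 and 0.759 TPM in untreated H82 and 7.53, 4.43 and 26.4 TPM in treated H82. The treated libraries were all higher but spread widely, with replicate 3 the highest, and the change was 2.72 ± 0.56 (adjusted p = 0.00528). The fibroblast gene COL1A1 had the same order of treated H82 libraries, at 4.95, 0.141 and 16.7 TPM against 0.234 to 0.343 TPM untreated, and the fibroblast gene DCN rose from 0.0597 to 0.207 TPM to 1.27 to 1.88 TPM (1.14 ± 0.19, adjusted p = 0.00214). Their part in the IFITM3 result was not tested. IFITM2, its neighbour in the same cluster, had 0.249, 0.168 and 0.265 TPM untreated and 1.94, 0.899 and 7.44 TPM treated, with the same order of treated libraries. It was below the filter, and the exact test gave a two-sided p of 0.1. Since the IFITM genes are near copies, the split of reads between IFITM2 and IFITM3 is uncertain. In H146, IFITM3 had 4.94, 4.91 and 4.14 TPM untreated and 6.76, 7.98, 5.01 and 4.90 TPM treated (0.32, adjusted p = 0.206), and IFITM1, at 0.404 to 3.45 TPM, overlapped as well (0.34, adjusted p = 0.495).

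BST2 encodes tetherin, which holds budding virus at the cell surface. It fell in H82 from 12, 10.2 and 12.4 TPM to 4.80, 1.98 and 3.65 TPM, without overlap (-1.53 ± 0.27, adjusted p = 0.00292, and -1.12, adjusted p = 0.0161, with the median of ratios). In H146, BST2 had 4.66, 3 and 2.34 TPM untreated and 8.74, 9.61, 6.23 and 4.20 TPM treated, where replicate 4 lay within the untreated range. The H146 rise of 0.90 ± 0.29 (adjusted p = 0.0319) was 0.65 (adjusted p = 0.107) with the median of ratios. It was lost without untreated replicate 2 or 3 or treated replicate 1 or 3, at 0.73 to 0.94 with an adjusted p of up to 0.125.

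The interferon-induced GTPases were at or under 0.427 TPM in all H82 libraries. MX1 and MX2, dynamin-like proteins that trap viral ribonucleoproteins, and GBP1 and GBP2, guanylate-binding proteins that coat intracellular pathogens, make up this group. In H146, GBP2 fell from 1.51, 1.93 and 1.39 TPM to 0.560, 1.05, 0.154 and 0.175 TPM. All treated libraries were lower (-0.85 ± 0.24, adjusted p = 0.0202), but the call was lost without untreated replicate 1 or 2 or treated replicate 3, at -0.87 to -0.74 with an adjusted p of up to 0.0727. GBP1 split the treated H146 libraries. It had 2.09, 2.11 and 1.87 TPM untreated, 4.93 and 4.93 TPM in treated replicates 1 and 2, and 0.0859 and 0.140 TPM in treated replicates 3 and 4, with a mean change of -0.23 ± 0.65 (adjusted p = 0.786). MX1 in H146 had 0.902 to 1.26 TPM untreated and 0.752 to 1.47 TPM treated (-0.11, adjusted p = 0.654).

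**Figure D3:**
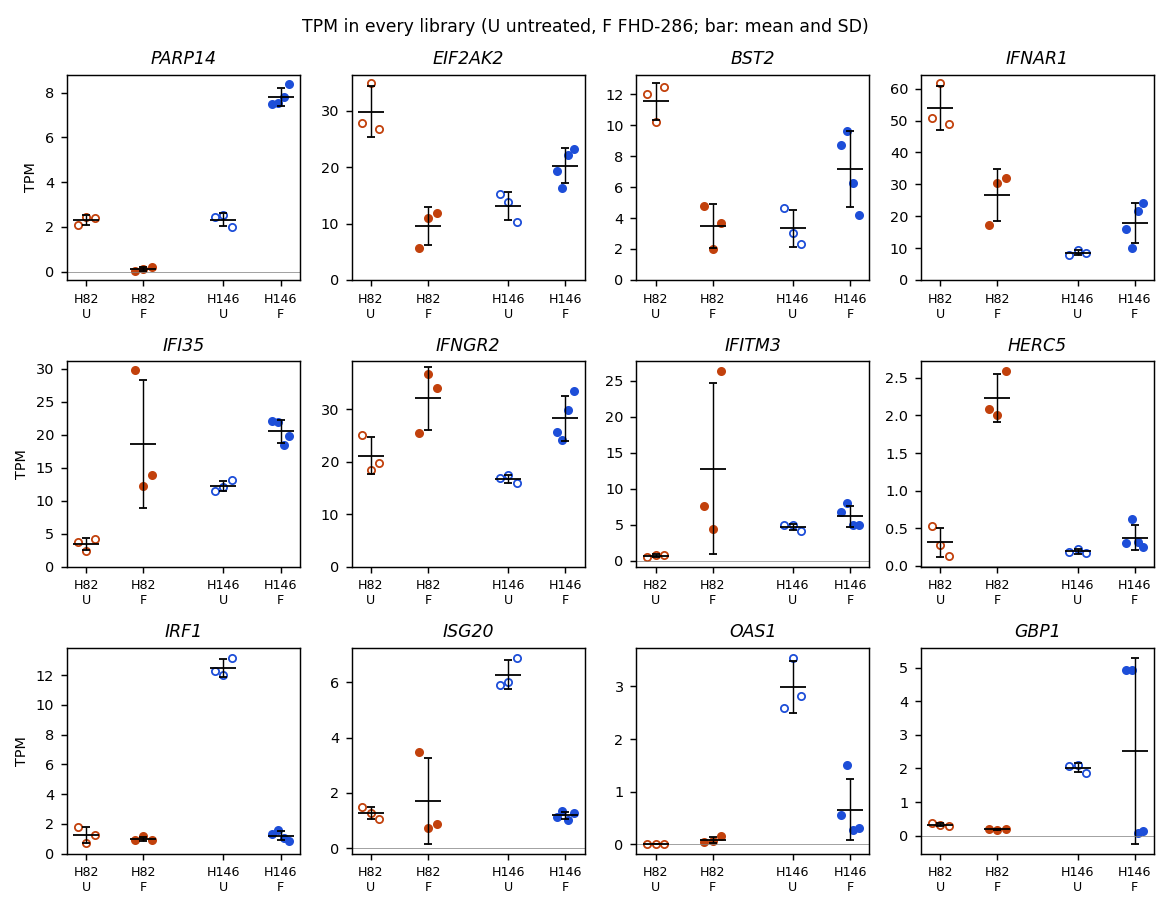
TPM of 12 genes in every library (open circles, untreated; filled circles, FHD-286; orange, H82; blue, H146), with the mean and SD of each group as bars. PARP14, EIF2AK2 and BST2 are lower in treated H82 and higher in treated H146, and GBP1 is at 4.93 TPM in 2 treated H146 libraries and at most 0.14 TPM in the other 2.

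ISG15 is a ubiquitin-like protein that UBE2L6 (its conjugating enzyme) and HERC5 (its ligase) attach to other proteins, and that USP18 removes. HERC5 rose in H82 from 0.523, 0.272 and 0.129 TPM to 2.08, 2.01 and 2.60 TPM, with the groups well apart. The change was 1.31 ± 0.20 (adjusted p = 0.00163), and 1.54 with the median of ratios. In H146 it was below the filter, at 0.165 to 0.221 TPM untreated and 0.252 to 0.626 TPM treated. UBE2L6 had 14.1, 12.6 and 14.4 TPM in untreated H82 and 55.3, 18.9 and 22.8 TPM in treated H82. All treated libraries were higher and replicate 1 was far above the others. The UBE2L6 change of 1.02 ± 0.38 (adjusted p = 0.0502) was past the threshold with the median of ratios (1.49, adjusted p = 0.0175), without treated replicate 1 (0.57, adjusted p = 0.00942) and without treated replicate 2 (1.32, adjusted p = 0.0256). In H146 it had 39.6 to 47.5 TPM untreated and 31.9 to 44 TPM treated (-0.17, adjusted p = 0.377, and -0.48, adjusted p = 0.0448, with the median of ratios).

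ISG15 itself had 2.24, 4.13 and 2.39 TPM in untreated H82 and 7.23, 1.03 and 1.76 TPM in treated H82, so 1 treated library was above and 2 were below the untreated range. In H146, ISG15 had 10.9, 10.6 and 15.2 TPM untreated and 5.60, 13.7, 3.76 and 2.66 TPM treated. Treated replicate 2 lay within the untreated range and the other 3 were below it (-1.03 ± 0.43, adjusted p = 0.0771). The ISG15 change was past the threshold with the median of ratios (-1.31, adjusted p = 0.0449) and without treated replicate 2 (-1.43, adjusted p = 0.00148). USP18 had 14.3, 15.2 and 11.5 TPM in untreated H146 and 9.19, 8.80, 10.5 and 11.8 TPM in treated H146 (-0.41, adjusted p = 0.0672, and -0.70, adjusted p = 0.00369, with the median of ratios). HERC6, a relative of HERC5, did not exceed 0.392 TPM in any library.

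Of the other antiviral effectors, PARP14 moved in opposite directions in the lines. PARP14 encodes an ADP-ribosyltransferase (chr3:122680839-122730840, hg38) and had nearly the same level in both untreated lines, at 2.06, 2.45 and 2.4 TPM in H82 and 2.44, 2.54 and 1.98 TPM in H146. Treated H82 had 0.0455, 0.119 and 0.219 TPM, and treated H146 had 7.51, 7.53, 7.82 and 8.39 TPM. In both lines the groups were far apart, with changes of -1.55 ± 0.18 in H82 (adjusted p = 0.000535) and 1.41 ± 0.15 in H146 (adjusted p = 0.000218). With the median of ratios these were -1.36 (adjusted p = 0.000988) and 1.16 (adjusted p = 0.000335). PARP9, its neighbour in function, was under 0.17 TPM in H82 and did not pass the threshold in H146, at 3.81 to 4.73 TPM untreated and 3.66 to 5.53 TPM treated (0.14, adjusted p = 0.535).

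ISG20, an exonuclease that degrades viral RNA, fell in H146 from 5.92, 6.03 and 6.90 TPM to 1.12, 1.33, 1.02 and 1.28 TPM. The groups were far apart, with a change of -1.74 ± 0.16 (adjusted p = 0.000103). In H82, ISG20 had 1.48, 1.27 and 1.06 TPM untreated and 3.49, 0.716 and 0.883 TPM treated, with replicate 1 above and the other 2 treated libraries below the untreated range (0.11, adjusted p = 0.823). SAMD9, a restriction factor of poxviruses, fell in H146 from 3.41, 2.98 and 2.29 TPM to 1.25, 0.482, 0.892 and 1.10 TPM, without overlap (-1.02 ± 0.21, adjusted p = 0.00479). SAMHD1, which depletes the nucleotides that viruses copy with, had 9.58 to 10.2 TPM untreated and 6.14 to 8.82 TPM treated in H82 (-0.29, adjusted p = 0.224). In H146, SAMHD1 had 5.81 to 7.02 TPM untreated and 5.05, 3.81, 9.31 and 9.35 TPM treated, with 2 treated libraries below and 2 above the untreated ones (0.01, adjusted p = 0.988). RSAD2, or viperin, was at 1.39 to 2.02 TPM in H146 (0.11, adjusted p = 0.621), and TRIM22 and SP100 stayed under 1 TPM in all libraries.

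The last group holds induced genes whose products are less well understood. IFI35, a small protein linked to interferon signalling (chr17:43006740-43014456, hg38), rose in both lines. In H82 it went from 3.79, 2.37 and 4.15 TPM to 29.7, 12.2 and 13.8 TPM, and in H146 from 11.4, 12.2 and 13.1 TPM to 22.1, 21.9, 18.4 and 19.8 TPM. There was no overlap in either line. The changes were 2.06 ± 0.36 (adjusted p = 0.0026) and 0.70 ± 0.13 (adjusted p = 0.00289), and with the median of ratios they were 2.48 (adjusted p = 0.00188) and 0.40 (adjusted p = 0.0502), so the H146 call just missed the threshold there. IFI27, a mitochondrial protein, fell in H82 from 3.10, 2.88 and 4.54 TPM to 0.317, 0.368 and 0.461 TPM, with the groups far apart. The IFI27 change was -1.69 ± 0.21 (adjusted p = 0.000745), while in H146 it had 1.47, 1.25 and 0.4 TPM untreated and 1.40, 3.18, 1.58 and 1.88 TPM treated (0.57, adjusted p = 0.118).

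IFI6, which keeps virus replication compartments from forming, had 6.43, 7.79 and 5.21 TPM in untreated H82 and 24.7, 9.63 and 8.70 TPM in treated H82. All treated libraries were higher, but the change of 0.90 ± 0.39 (adjusted p = 0.0823) passed the threshold only with another scaling (1.34, adjusted p = 0.0286, with the median of ratios and 1.66, adjusted p = 0.0113, with quantile normalization). In H146, IFI6 had 32.5 to 34.6 TPM untreated and 26.0, 45.3, 12.5 and 7.75 TPM treated. Treated replicate 2 was above and the others were below the untreated range (-0.81, adjusted p = 0.202, and -1.23, adjusted p = 0.0163, without treated replicate 2). In release 44, 23.1% of the exonic bases of IFI6 lie in another gene on the same strand. IFI44 and IFI44L, adjacent genes on chromosome 1, were below the filter in both lines. In H82, IFI44 had 0.565 to 0.891 TPM untreated and 0.997, 1.84 and 3.07 TPM treated, and IFI44L had 0.02 to 0.0562 TPM untreated and 0.140, 0.732 and 0.835 TPM treated. The treated libraries of both were above all untreated ones (exact permutation test, two-sided p = 0.1 for each, the smallest possible). XAF1, a gene linked to apoptosis, did not exceed 0.319 TPM in any library.

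Below the filter on low values were 27 genes in H82 and 15 in H146. In H82, 6 of the 27 had all treated libraries above all untreated ones (IFIT2, OAS1, OAS3, IFITM2, IFI44 and IFI44L) and 1 had the reverse (GBP1), beside 6.11% and 17.5% of all genes below the filter with a value above 0. In H146, 3 of the 15 had all treated libraries above (IFI16, HERC5 and TRIM22) and none below, beside 11.3% and 3.65% of such genes. Among these untested genes, only IFNAR2, IFITM2, USP18 and IFI44 in H82 and IFITM2 and IFI44 in H146 reached 1 TPM in any library of the line. USP18 in H82 had 0.721, 0.122 and 0.769 TPM untreated and 1.40, 9.71 and 0.719 TPM treated, with the 9.71 TPM in the library that stood apart.

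Whether the response of a gene differed between the lines was tested as an interaction term, line by treatment, over all 13 libraries. It was fitted for the 24374 genes with at least 1 TPM in 3 or more of the 13 libraries. Of the 52 genes, 10 had a change in H146 above that in H82 (46.0% of the 24374 genes) and 13 had a change below it (13.3%). The 52 include genes that were not fitted, among them 10 under 1 TPM in all 13 libraries. The counts and the shares therefore have unlike bases. With median-of-ratios scaling the shares of all genes were 30.8% and 25.5%, and the counts were 7 and 19, while quantile normalization gave 6 (25.7% of all genes) and 22 (25.2%). The widest difference was that of PARP14, at 2.96 ± 0.21 on the log2 scale (adjusted p = 6.43e-07), or 2.55 with the median of ratios. It was followed by BST2 (2.44), IFI27 (2.26), EIF2AK2 (2.20), IFNAR1 (1.95), JAK2 (1.93) and DDX58 (1.61), which stayed past the threshold with the median of ratios, and by IRF7, STAT2 and IRF9, which did not. On the other side were IRF1 (-2.47 ± 0.27, adjusted p = 1.49e-05), IFITM3 (-2.4), ISG20 (-1.84), OAS1 (-1.43), IFI35 (-1.36), UBE2L6 (-1.19), SAMD9 (-1.12), IFIH1 (-1.11), HERC5 (-1.11), GBP2 (-0.93), IFIT2 (-0.80), IFNGR1 (-0.74) and IRF3 (-0.72), all of which were past the threshold with the median of ratios too. For IFIH1, OAS1, SAMD9, IFIT2 and GBP2, no H82 library was above 0.607 TPM, so these differences set a fall in H146 against a gene that H82 hardly expressed.

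Some of these differences rested on single libraries. That of UBE2L6 was lost without untreated replicate 1 of H146 (adjusted p = 0.0544) or untreated replicate 2 of H82 (adjusted p = 0.0521). That of IRF9 was lost without untreated replicate 2 or 3 of H146 or without untreated replicate 3 or treated replicate 2 of H82 (0.83 to 0.89, adjusted p up to 0.0699). That of IFNGR1 was lost without untreated replicate 1 or 2 or treated replicate 1, 3 or 4 of H146, or without untreated replicate 1 or 3 or treated replicate 1 of H82 (-0.75 to -0.66, adjusted p up to 0.0736). IRF7 (1.38, adjusted p = 0.0498) kept its call only without treated replicate 3 or 4 of H146 or untreated replicate 2 of H82, and was otherwise at 1.08 to 1.52 with an adjusted p of up to 0.121. Differences that were not called with all libraries but were without the H82 library that stood apart were those of USP18 (-1.64, adjusted p = 0.058, to -0.84, adjusted p = 0.0456), IFITM2 (-1.14, adjusted p = 0.0927, to -1.60, adjusted p = 0.0115) and IFI16 (to 0.99, adjusted p = 0.0474). That of USP18 was also past the threshold without treated replicate 1 or 3 of H82 (-1.92 and -2.16), and that of IFI16 without treated replicate 3 of H82 (1.09). IFI6 (-1.72, adjusted p = 0.053) was past the threshold without treated replicate 1 or 2 of H146 or treated replicate 3 of H82, at -2.13 to -1.87. With a pseudocount of 0.1 the differences of GBP2, IFIH1, SAMD9 and IRF7 were lost (adjusted p = 0.0578 to 0.136).

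Of the 23 genes tested in both lines, 5 were called lower in H82 and higher in H146 (BST2, EIF2AK2, IFNAR1, PARP14 and STAT2), beside 13.2% of all genes tested in both, and none was called in the reverse order by limma (2.3%), with 0 genes also at an unadjusted p under 0.05. With the median of ratios, PARP14 alone was called lower in H82 and higher in H146 (4.8% of all genes), and IRF3 and UBE2L6 were called in the reverse order (8.0%). IFI35 and IFNGR2 rose in both lines (4.83%, and 5.82% with the median of ratios, where IFNGR2 alone did). None fell in both by limma (4.43%, and 4.58% with the median of ratios), and 0 did at an unadjusted p under 0.05.

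**Figure D4:**
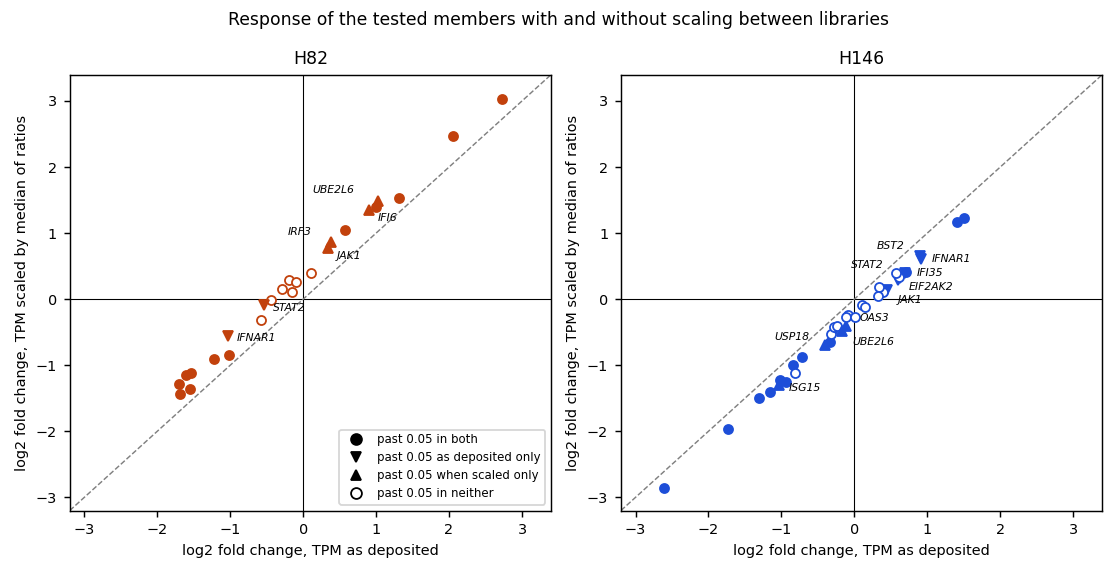
Log2 fold change of each tested gene with the TPM as deposited (horizontal axis) and after median-of-ratios scaling (vertical axis), with H82 on the left and H146 on the right. Points lie above the dashed line of equality in H82 and below it in H146, and the genes whose call differs between the scalings are named.

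The interferons themselves and other genes of the pathway were looked at in a list of 56 genes. None of 14 interferon ligand genes passed the filter in either line, 9 of them were listed at 0 in all H82 libraries and 7 in all H146 libraries, and the highest value was 1.51 TPM of IFNK in 1 untreated H82 library. IFNB1, the gene of interferon beta, had 0.449, 0.223 and 0.203 TPM in untreated H146 and 0, 0, 0 and 0.117 TPM in treated H146, without overlap (exact permutation test, two-sided p = 0.0286, the smallest possible). Of the 56 genes, 22 were tested in H82, where 5 rose and 9 fell, beside 13.1% and 45.5% of all genes, and 29 in H146, where 11 rose and 7 fell, beside 32.5% and 15.5%. With the median of ratios the counts were 8 and 5 in H82, beside 24.2% and 32.9%, and 6 and 10 in H146, beside 21.3% and 25.1%. Changes of at least 1 on the log2 scale in H82 were the rise of the chemokine gene CXCL10 (0, 0.441 and 0.174 TPM to 5.08, 4.01 and 4.66 TPM, change 2.22 ± 0.22, adjusted p = 0.000316) and the falls of TRIM14 (-1.49), PARP10 (-1.36), the signalling adaptor TRAF3 (-1.16) and the helicase ZNFX1 (-1.10). With the median of ratios, the TRAF3 call was lost (-0.68, adjusted p = 0.0645), and ZNFX1 kept its call (-0.64, adjusted p = 0.0214). In H146 such rises were those of the mitochondrial antiviral adaptor TRIM14 (1.94), ZNFX1 (1.37), the toll-like receptor adaptor TICAM1 (1.32) and the RNA-editing enzyme ADAR (1.01).

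Falls of that size in H146 were seen in 5 genes. TNFSF10, the gene of the death ligand TRAIL, went from 8.34, 7.98 and 7.44 TPM to 0.285, 0.736, 0.309 and 0.317 TPM, without overlap (-2.67 ± 0.18, adjusted p = 2.37e-05). LGALS3BP, a secreted galectin-binding protein, went from 116, 149 and 119 TPM to 35.5, 41.2, 13 and 11.9 TPM, again without overlap (-2.48 ± 0.43, adjusted p = 0.00212). TRIM21, an intracellular antibody receptor (-1.81), IRF2, which counters IRF1 (-1.61), and PARP12 (-1.44) also fell. CXCL10 in H146 had 2.05, 4.57 and 0.965 TPM untreated and 2.15, 8.6, 0.0912 and 0 TPM treated. As for GBP1, treated replicates 1 and 2 were above treated replicates 3 and 4 (-0.43, adjusted p = 0.669).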

How the data were processed

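RNA of the H82 and H146 lines, grown with or without FHD-286 (100 nM, 14 days), was sequenced in 13 libraries in the study, and the authors deposited 1 table of TPM (reads per gene length, scaled to an equal sum in each library) for each line. Per the study's methods, the authors mapped reads to hg38 and counted them with STAR on GENCODE release 28, and their processing notes for these samples also name Trim Galore 0.4.4 and DESeq2, while the gene lengths behind the TPM and the handling of strand are not given in the sources used here. Groups came from the sample labels, and no sample was left out. The TPM as deposited were analysed as log2(TPM + 1) with limma 3.58.1 (linear model, empirical Bayes with trend) in R 4.3.3, for genes that reached 1 TPM in 3 or more of the libraries of that line. P-values were two-sided, were adjusted by Benjamini-Hochberg over every gene fitted and were called at 0.05. The difference between lines was the interaction of line and treatment in a fit of the 13 libraries. Genes below the filter were compared by an exact permutation test of mean log2(TPM + 1). No 2 libraries had identical values over all genes. Alternatives were a pseudocount of 0.1, no filter, median-of-ratios scaling, quantile normalization, removal of mitochondrial genes, the replicate number as a block, no trend, and each library left out. A stricter motif, the log2 ratio of mean TPM and an exact test of mean TPM were added after seeing the data. The fit was tested on simulated data. The 52 genes, the further gene lists and the promoter motifs were chosen with earlier results of these data known. Genes past the threshold are named with their values, and those with a change of at least 1 on the log2 scale, and all receptors, kinases, factors and sensors, with the value in every library. Among the other pathway genes, those past the threshold with a change of at least 1 are named. Gene positions are from GENCODE release 44 (hg38), and promoter sequences are from RefSeq (GRCh38.p14).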

Additional observations from a re-analysis of the deposited data

Results flagged for a closer look

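In treated H146, IFNGR1 had 84.7 TPM in replicate 2 and 47.8 to 49.8 TPM in the other 3 libraries, so that the gap took 0.929 of the range. The cutoff used is passed by chance in about 1 of 20 groups, and 37 genes were checked.

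The change in H146 differed from that in H82 for 23 of the 52 genes, by the interaction of line and treatment in limma. Of the 24374 genes past the filter, 46.0% had a change in H146 above that in H82 and 13.3% had one below it. Some of the 52 genes were below the filter, so the count and the shares have unlike bases. It was higher in H146 for PARP14 (2.96), BST2 (2.44), IFI27 (2.26), EIF2AK2 (2.20), IFNAR1 (1.95), JAK2 (1.93), DDX58 (1.61), IRF7 (1.38), STAT2 (1.16) and IRF9 (0.93). With the median of ratios, STAT2 (0.40, adjusted p = 0.146), IRF9 (0.64, adjusted p = 0.121) and IRF7 (0.79, adjusted p = 0.244) were no longer past the threshold, and with quantile normalization DDX58 was not either (adjusted p = 0.305). It was lower in H146 for IRF1 (-2.47), IFITM3 (-2.40), ISG20 (-1.84), OAS1 (-1.43), IFI35 (-1.36), UBE2L6 (-1.19), SAMD9 (-1.12), IFIH1 (-1.11), HERC5 (-1.11), GBP2 (-0.93), IFIT2 (-0.80), IFNGR1 (-0.74) and IRF3 (-0.72). The 2 lines were deposited as separate tables, so a difference between lines cannot be told apart from one between tables.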

How the results depend on the processing

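The share of rises against falls depended on the scaling. In H82, 9 genes rose under median-of-ratios scaling and 11 under quantile normalization, where 5 fell, against 5 and 9 with the TPM as deposited. The median change in H82 was -0.19 as deposited, 0.15 after median-of-ratios scaling, 0.40 after quantile normalization, 0.053 without the filter and -0.34 without mitochondrial genes. In H146, 3 genes rose under median-of-ratios scaling and 5 under quantile normalization, against 9, and the median was -0.32 with quantile normalization against -0.11. The difference between lines was past the threshold for 6 genes with the higher and 22 with the lower change in H146 under quantile normalization, against 10 and 13. Leaving out 1 library at a time gave 4 to 7 rises and 8 to 9 falls in H82 with a median of -0.27 to -0.18, and 5 to 10 rises and 6 to 11 falls in H146 with a median of -0.22 to -0.04. It gave 8 to 10 higher and 11 to 15 lower differences. The sign turned for STAT2 in H82 (0.095, quantile), IRF1 in H82 (0.74, quantile), TYK2 in H82 (0.075, median of ratios), and for the differences of IFNGR2 (-0.65, median of ratios), JAK1 (-0.64, median of ratios, and -0.87, quantile), TICAM1 (-0.11 and -0.0057), PIAS1 (-0.054, median of ratios) and LAP3 (-0.034, median of ratios). The ISRE core was in 57.5% of promoters and in 52.5% when a pyrimidine had to follow it, directly or after 2 further bases. Deviations of same-numbered treated and untreated libraries correlated at -0.038 to 0.027 in H82 and -0.111 to 0.011 in H146. Untreated replicate 1 and treated replicate 2 of H146 reached 0.107. No shared deviation by replicate number was seen, but with so few libraries this cannot tell whether replicates were paired. With the replicate number as a block, 5 genes rose and 8 fell in H82, and 6 rose and 6 fell in H146. Shares of all genes are not given for the block and leave-one-out fits. The counts from those fits therefore show only how far the calls on these genes held. Of all values given per gene and setting, 2777 kept direction and side of the threshold, 197 lost the call, 77 gained it, 38 without a call moved and 10 turned. The cause of these shifts was not tested. Without read numbers, the precision of values under 1 TPM is unknown.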
